A study of Mus musculus with 19 samples.

Results

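Within one group of tumour organoids, those labelled resistant to immunotherapy, the libraries differed in how much RNA they held for the MHC class I pathway. The 4 libraries with the most are set here against the 4 with the least. For each of the 9 resistant libraries a class I score was taken, the mean of log2(CPM + 1) over 8 genes (H2-K1, H2-D1, B2m, Tap1, Tap2, Tapbp, Psmb8 and Psmb9), where CPM is the count of a gene per 1000000 counts of its library. The groups were chosen by these measured values. The MHC-I-high group holds resistant libraries 5, 7, 8 and 9, and the MHC-I-low group holds resistant libraries 1, 2, 3 and 6. Resistant library 4, whose score fell between them, is in neither group and is called the middle library. These are 8 of the 19 libraries of the series, which measured mouse organoids, 3-dimensional cell cultures, by bulk sequencing of mRNA with a kit that keeps strand. Both groups carry the same labels, non-small cell lung cancer as the tissue and resistance to immunotherapy as the group, and the 3 sensitive libraries of the same table carry the same tissue with sensitivity to immunotherapy. The labels name no strain, genotype, age or drug, nor how many animals or cultures stand behind the libraries. Because the groups were formed from measured values, every comparison between them is a description of 4 libraries against 4, without a test.

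MHC class I molecules carry peptides from inside the cell to its surface, where CD8 T cells read them. H2-K1 and H2-D1 encode the classical heavy chains of the mouse, and B2m the light chain they need to fold. Psmb8 and Psmb9 are subunits of the immunoproteasome, Tap1 and Tap2 pump peptides into the endoplasmic reticulum, and Tapbp (tapasin) helps load them. The pathway is induced by interferon-gamma, in part through the factor IRF1 and the coactivator NLRC5, and its loss is one known route by which tumours escape T cells.

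The score, which chose the groups, was 7.49, 7.26, 7.04 and 7.33 in MHC-I-high libraries 5, 7, 8 and 9, against 5.18, 5.57, 5.35 and 5.36 in MHC-I-low libraries 1, 2, 3 and 6. The middle library had 6.90, only 0.141 under the lowest MHC-I-high library and 1.33 above the highest MHC-I-low library, so it lay nearer the upper group. In the 3 sensitive libraries the score was 7.75 to 7.78, above all 9 resistant libraries. Among the genes of the score, H2-K1 had 1392, 1329, 1219 and 1304 CPM in the MHC-I-high libraries, against 325, 368, 350.0 and 402 CPM in the MHC-I-low libraries. B2m had 1263, 1290.4, 1332 and 1204 CPM in the MHC-I-high libraries, against 338, 473, 551 and 536 CPM in the MHC-I-low libraries. Psmb8 had the widest gap of the 8, with 199, 83.8, 52.7 and 79.3 CPM in the MHC-I-high libraries against 9.54, 9.68, 5.81 and 9.49 CPM in the MHC-I-low libraries. Tapbp was the one gene of the score whose groups overlapped, at 197 ± 23.5 CPM in MHC-I-high and 155 ± 49.9 CPM in MHC-I-low libraries (SD, n = 4 each), with its highest value in resistant library 3 of the MHC-I-low group.

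**Figure D1:**
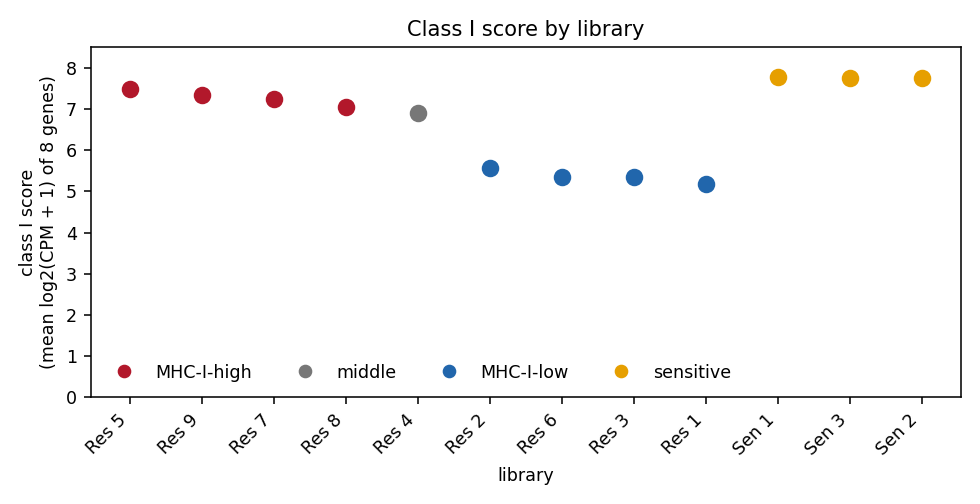
Class I score (mean log2(CPM + 1) of 8 genes) of each library, as 1 point per library. The MHC-I-high libraries lie between 7.04 and 7.49, the middle library at 6.90, the MHC-I-low libraries between 5.18 and 5.57 and the 3 sensitive libraries between 7.75 and 7.78.

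The libraries within the groups were not alike in other ways. MHC-I-high libraries 8 and 9 held epithelial RNA that the other resistant libraries largely lacked: Epcam, an epithelial adhesion protein, had 228 and 334 CPM there and at most 30.3 CPM in the other 7 resistant libraries, against 583, 516 and 571 CPM in sensitive libraries. Those libraries and MHC-I-low library 6 also held reads of Xist, the RNA of the inactive X chromosome, and 0 counts of the Y-linked gene Ddx3y, so both groups mix libraries with and without Y-linked reads. Vim, a mesenchymal filament, overlapped between the groups at 2281 ± 1004 CPM in MHC-I-high and 2179.9 ± 1011 CPM in MHC-I-low libraries (SD, n = 4 each). Resistant libraries held 11988677 to 24462955 counts and sensitive libraries 15292427 to 18716749. In bulk RNA, fewer cells of a type and less RNA per cell cannot be told apart.

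The start-proximal DNA of some class I and interferon-inducible genes is shown first, because the letters that interferon and NF-kB factors are known to read recur in the genes shown. Each line gives a stretch of the 250 bases before the RefSeq start (GRCm38.p6, the build called mm10), 5′ to 3′ on the strand of the gene. Capitals mark matches to the core of the interferon-stimulated response element, GAANNGAAA (or its reverse complement), and to the kappa-B element of class I genes, searched as GGGANTNCC on both strands, letters chosen to fit these promoters.
H2-K1 (chr17:34000415-34000471, minus strand): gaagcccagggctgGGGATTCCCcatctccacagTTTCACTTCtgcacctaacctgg
H2-D1 (chr17:35262910-35262966, plus strand): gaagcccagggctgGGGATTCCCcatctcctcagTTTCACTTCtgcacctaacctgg
H2-Q4 (chr17:35379430-35379486, plus strand): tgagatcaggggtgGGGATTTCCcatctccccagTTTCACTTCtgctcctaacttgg
Igtp (chr11:58199503-58199539, plus strand): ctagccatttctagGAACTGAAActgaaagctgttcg
Irgm2 (chr11:58214894-58214930, plus strand): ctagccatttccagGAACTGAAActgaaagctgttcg
Tgtp1 (chr11:48992306-48992342, minus strand): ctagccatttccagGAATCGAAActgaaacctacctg
The first match of H2-K1 began 110 bases before its start, that of H2-D1 170 bases before and that of H2-Q4 173 bases before, and in all 3 genes the kappa-B letters precede the interferon element. Searched on both strands of 300-base windows (250 bases before to 50 after the start), GAANNGAAA stood in 13.0% of the promoters of genes called higher in MHC-I-high libraries (34 of 262), in 4.17% of those called lower (3 of 72) and in 7.27% of all promoters of measured genes (714 of 9824). GGGANTNCC stood in 4.20% of promoters of genes called higher (11 of 262), in 5.56% of those called lower (4 of 72) and in 5.80% of all (570 of 9824). The interferon-gamma activated site TTCNNNGAA stood in 11.8% of promoters of genes called higher, in 6.94% of those called lower and in 8.34% of all, and the AP-1 site TGANTCA in 13.0%, 5.56% and 6.47%. Of 7 score genes with a promoter window, H2-K1 and H2-D1 alone held GAANNGAAA, and they alone held GGGANTNCC. A match describes letters only and shows no binding.

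Of 12892 genes outside the score with a mean of at least 1 CPM over the 8 libraries, a gene was called where the 4 MHC-I-high and the 4 MHC-I-low values did not overlap and the means of log2(CPM + 1) differed by at least 1. By that rule 365 genes were called higher in MHC-I-high libraries (2.83% of those measured) and 104 lower (0.807%). These shares are the background against which the lists of genes were read, since the choice of libraries by their own RNA fixes part of any difference. The median difference over all genes was 0.01, so the groups were centred alike. All differences given for single genes are MHC-I-high minus MHC-I-low on the log2(CPM + 1) scale, which understates the change of genes with low values.

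**Figure D2:**
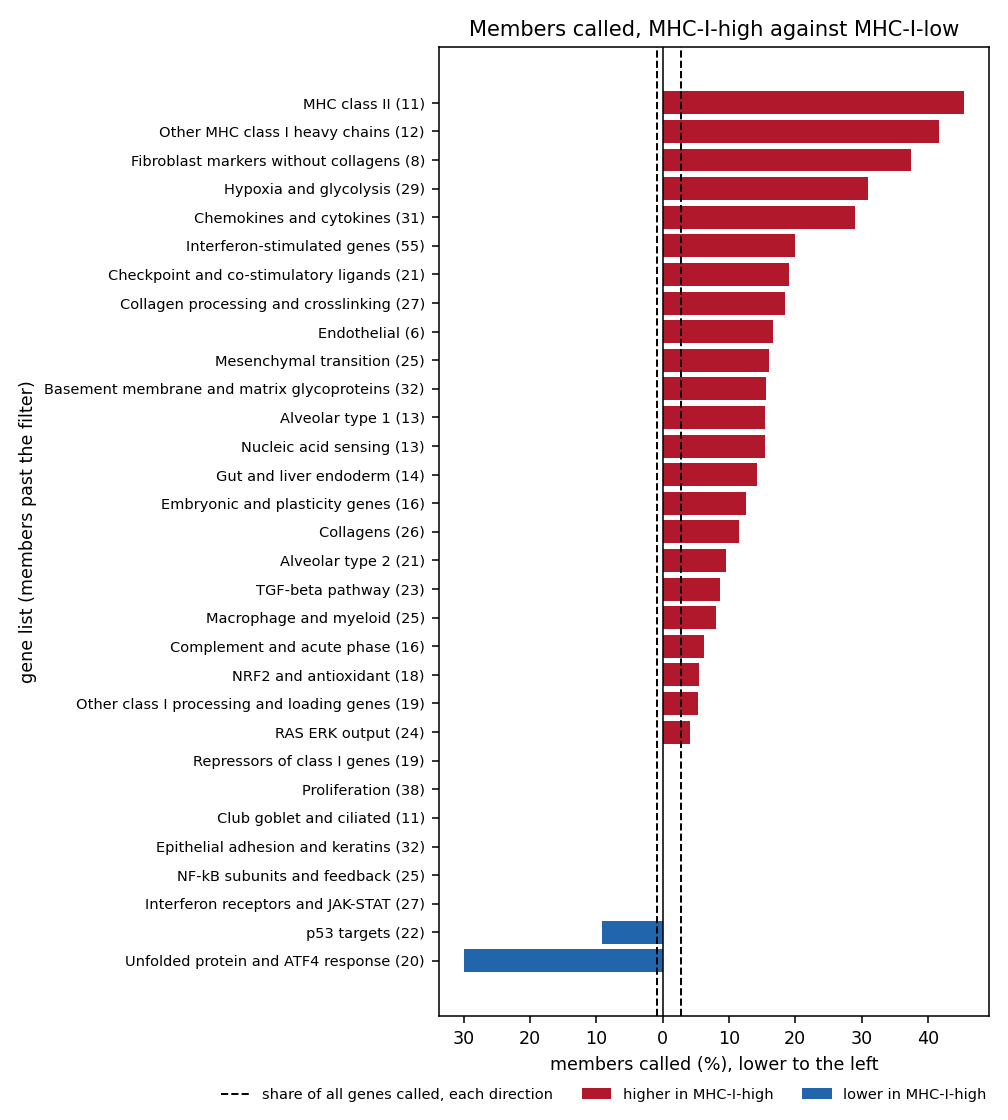
Share (%) of the members of each gene list past the filter that were called higher (right) or lower (left) in MHC-I-high libraries, for lists with at least 5 members past the filter and without the 5 lists drawn up after their values were seen, with the number of members in brackets. The dashed lines stand at the share of all genes called, 2.83% and 0.807%. MHC class II, other class I heavy chains, fibroblast markers, hypoxia and cytokine lists reach furthest to the right of the lists plotted and the ATF4 list furthest to the left.

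Some class I heavy chains outside the score were also higher in the MHC-I-high libraries, while most other helpers of antigen processing were not. Of 12 further heavy chain genes past the filter, 5 were called higher (41.7%, against 2.83% of all genes) and 0 lower, with a median difference of 0.57. The 5 were H2-Q4, H2-Q5, H2-Q10, H2-T10 and H2-M3. H2-Q4, a non-classical class I gene of the Q region, had 189.9, 137, 206 and 185 CPM in the MHC-I-high libraries, 128 CPM in the middle library, and 11.5, 48.7, 34.9 and 24.2 CPM in the MHC-I-low libraries. The groups were well apart, and the middle library stood just under the lowest MHC-I-high value. H2-Q5 had 47.6, 34.8, 48.7 and 35.5 CPM in the MHC-I-high libraries, against 1.53, 8.93, 5.42 and 1.47 CPM in the MHC-I-low libraries. The GENCODE annotation lists H2-Q5 as a polymorphic pseudogene. H2-M3, which presents formylated peptides, had 13.7, 10.9, 11.7 and 18.4 CPM in the MHC-I-high libraries, against 4.91, 6.76, 6.06 and 1.66 CPM in the MHC-I-low libraries. H2-T23, which encodes Qa-1, the ligand of inhibitory receptors of NK cells, overlapped between the groups at 55.9 ± 14.8 CPM in MHC-I-high and 39.9 ± 20.2 CPM in MHC-I-low libraries (SD, n = 4 each). Many class I genes are close copies of each other, so reads may be split among them, and single members are uncertain.

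Of 19 other processing and loading genes, Nlrc5, the transactivator of class I promoters, alone was called higher (5.26%, against 2.83% of all genes). It had 66.9, 68.7, 23.2 and 38.8 CPM in the MHC-I-high libraries, against 5.001, 20.8, 17.8 and 21.2 CPM in the MHC-I-low libraries, a difference of 1.60. The groups lay close together, MHC-I-high library 8 standing just above the MHC-I-low libraries 2, 3 and 6. Psmb10, the third catalytic subunit of the immunoproteasome, overlapped at 24.7 ± 7.57 CPM in MHC-I-high and 19.3 ± 7.996 CPM in MHC-I-low libraries (SD, n = 4 each). The proteasome activators Psme1 and Psme2 differed by 0.55 and 0.31, the trimming peptidase Erap1 by 0.40 and the chaperone Calr by -0.09, all with groups that overlapped. In the stretch of chromosome 17 from H2-K1 to H2-M3 (33996017 to 37274484, mm10), which holds the mouse MHC, 93 genes outside the score passed the filter. Of these 11 (11.8%, against 2.83% of all genes) were called higher and 0 lower. All of the 11 but Ier3 and C4b are H2 genes also counted in the heavy chain or class II lists, so this share mostly repeats those lists.

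MHC class II genes, which present peptides from outside the cell to CD4 T cells, were in part higher in the MHC-I-high libraries. Of 11 members, 5 were called higher (45.5%, against 2.83% of all genes) and 0 lower. H2-DMb1, a subunit of the peptide exchanger of class II, had 57.2, 34.2, 26.4 and 26.5 CPM in the MHC-I-high libraries, against 3.84, 3.003, 2.84 and 2.16 CPM in the MHC-I-low libraries, and 30.3 CPM in the middle library. Cd74, the invariant chain, had 41.1, 81.2, 32.02 and 51.7 CPM in the MHC-I-high libraries, against 13.9, 18.1, 8.71 and 15.1 CPM in the MHC-I-low libraries. H2-Ab1, a class II chain, had 64.3, 30.6, 35.9 and 39.8 CPM in the MHC-I-high libraries, against 6.99, 10.6, 8.39 and 2.72 CPM in the MHC-I-low libraries. All 3 genes were among the 5 called, so by the rule their groups did not overlap, and H2-Eb1 and H2-DMa were called at lower levels. Ciita, the transactivator of class II genes, stayed near the limit of what was measured and overlapped, with 1.81, 1.39, 1.02 and 3.56 CPM in the MHC-I-high libraries against 0.509, 0.584, 0.323 and 1.11 CPM in the MHC-I-low libraries. Myeloid cells carry class II too: the summed level of 28 macrophage and myeloid markers ran from 495 to 774 CPM in MHC-I-high and from 332 to 569 CPM in MHC-I-low libraries. Ptprc (CD45), carried by all white blood cells, had 12.9, 16.4, 14.1 and 12.2 CPM in the MHC-I-high libraries against 7.83, 36.1, 11.7 and 5.57 CPM in the MHC-I-low libraries, highest in a MHC-I-low library. Of the 25 myeloid markers past the filter, 2 were called higher (8%, against 2.83% of all genes): Cd14, not without library 1, and Fcgr3, not without libraries 8 and 9. The part of myeloid markers in the class II values was not tested. With the epithelial libraries 8 and 9 left out, 6 of 10 class II genes were called higher, the 5 above among them, while the share of all genes called higher was 4.36%, since fewer libraries overlap less.

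A part of the interferon-stimulated genes, mostly GTPases, was higher in the MHC-I-high libraries. Of 55 members, 11 were called higher (20%, against 2.83% of all genes) and 0 lower. Of the 55, 50 had a difference above 0, and the median difference was 0.94. Igtp (Irgm3), one of the interferon-inducible GTPases that act on the vacuoles of intracellular parasites, had 37.8, 31.6, 21.4 and 28.96 CPM in the MHC-I-high libraries, against 3.10, 12.3, 2.06 and 5.39 CPM in the MHC-I-low libraries. Tgtp1, a GTPase of the same family, had 23.7, 17.7, 12.2 and 33.8 CPM in the MHC-I-high libraries, against 0.602, 7.67, 0.645 and 2.67 CPM in the MHC-I-low libraries. Iigp1, another member, had 60.01, 20.3, 12.9 and 30.6 CPM in the MHC-I-high libraries, against 0.602, 3.34, 0.258 and 5.80 CPM in the MHC-I-low libraries. In none of the 3 did the groups overlap, as the rule for a call requires. MHC-I-low library 2 was the highest of its group for Igtp and Tgtp1, and MHC-I-high library 8 was the lowest of its group for all 3. The other called members were Ifi47, Irgm2, Gbp5, Gbp7, Oas3, Rsad2, Trim21 and Samd9l. Gbp2, a guanylate-binding protein, differed by 2.33 but overlapped, since MHC-I-low library 6 had 14.05 CPM and MHC-I-high library 8 had 12.8 CPM. Isg15, a ubiquitin-like protein induced mainly by type I interferon, overlapped at 3.19 ± 1.80 CPM in MHC-I-high and 2.83 ± 2.74 CPM in MHC-I-low libraries (SD, n = 4 each).

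The mean over the whole interferon-stimulated list did not separate the groups. It was 3.79, 3.79, 3.26 and 3.80 (log2(CPM + 1)) in the MHC-I-high libraries, against 2.32, 2.80, 2.23 and 3.35 in the MHC-I-low libraries. MHC-I-low library 6 thus stood above MHC-I-high library 8, although its class I score was 5.36. Without libraries 8 and 9, 21 of 53 members were called higher, against 4.36% of all genes in that setting, and 10 of the 11 above were among them.

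The genes that carry the interferon signal were not called. None of the 27 genes for interferon receptors, JAK kinases, the factors they activate and their regulators met the rule in either direction. Since 2.83% of all genes were called higher and 0.807% lower, a list of this size may well hold no call. Irf1, a transcription factor induced by interferon-gamma, had 88.6, 55.3, 73.2 and 105 CPM in the MHC-I-high libraries, against 30.2, 71.1, 52.96 and 48.6 CPM in the MHC-I-low libraries. Its groups overlapped, since MHC-I-low library 2 stood above MHC-I-high library 7. Ifngr1 and Ifngr2, the chains of the interferon-gamma receptor, differed by 0.57 and 0.59, and the kinases Jak1 and Jak2 by 0.07 and -0.01. Among 13 sensors of foreign nucleic acid, Ifih1 (MDA5) and Aim2 were called higher (15.4%, against 2.83% of all genes). Aim2 had 63.5, 61.97, 50.4 and 42.4 CPM in the MHC-I-high libraries, against 5.70, 31.9, 32.4 and 31.9 CPM in the MHC-I-low libraries, where library 1 stood far under the others. The call of Aim2 ended without library 1 and that of Ifih1 without library 3.

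NF-kB genes and known repressors of class I transcription were not called in either direction. With 2.83% of all genes called higher and 0.807% lower, few or no calls are expected in lists of this size. All 25 genes of NF-kB subunits and feedback failed the rule, with a median difference of -0.16. Nfkb1 was 113 ± 24.7 CPM in MHC-I-high and 161 ± 30.5 CPM in MHC-I-low libraries, and Relb 43.8 ± 9.38 CPM in MHC-I-high and 73.7 ± 29.4 CPM in MHC-I-low libraries (SD, n = 4 each), each with groups that overlapped. Of 19 repressors of class I genes, among them the Polycomb methyltransferase Ezh2 with a difference of -0.33, 0 were called.

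Several secreted cytokines and adhesion ligands were higher in the MHC-I-high libraries. Of 31 chemokines and cytokines, 9 were called higher (29.0%, against 2.83% of all genes) and 0 lower: Cxcl3, Cxcl10, Cxcl14, Cx3cl1, Csf3, Il1a, Il1rn, Lif and Tslp. Cxcl14, a chemokine, had 187, 13.3, 24.4 and 24.03 CPM in the MHC-I-high libraries, against 0.463, 0.918, 0.903 and 2.30 CPM in the MHC-I-low libraries. Library 5 carried the highest value, and the lowest MHC-I-high library was still far above the highest MHC-I-low one. Csf3 (G-CSF), the growth factor of neutrophils, had 267, 205, 202 and 299 CPM in the MHC-I-high libraries, against 13.8, 30.03, 22.3 and 91.9 CPM in the MHC-I-low libraries. Cxcl10, an interferon-inducible attractant of T cells, was low throughout, with 6.81, 2.86, 3.46 and 2.75 CPM in the MHC-I-high libraries against 0.370, 1.58, 1.42 and 1.70 CPM in the MHC-I-low libraries. Il1rn, the antagonist of the interleukin-1 receptor, was 23.7 ± 9.64 CPM in MHC-I-high and 3.72 ± 1.76 CPM in MHC-I-low libraries (SD, n = 4 each). Without libraries 8 and 9, 14 of 28 were called higher, against 4.36% of all genes in that setting, and the 9 above were among them. The call of Cxcl10 ended without library 1 or 5.

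Of 21 checkpoint and co-stimulatory ligands, 4 were called higher (19.05%, against 2.83% of all genes) and 0 lower. Vcam1, an adhesion molecule for lymphocytes, had 59.1, 173, 176 and 237 CPM in the MHC-I-high libraries, against 7.92, 13.3, 11.5 and 14.4 CPM in the MHC-I-low libraries. Its difference of 3.53 was the largest of the list, with library 5 lowest among the MHC-I-high. Icam1, which binds the integrin LFA-1, had 86.7, 151, 176 and 163 CPM in the MHC-I-high libraries, against 53.9, 32.3, 37.997 and 81.1 CPM in the MHC-I-low libraries. Tnfsf9 (4-1BB ligand) and Nt5e (CD73, which makes adenosine) were the others. Cd274, which encodes PD-L1, did not separate the groups, with 27.4, 30.6, 46.1 and 30.6 CPM in the MHC-I-high libraries against 4.68, 35.5, 29.6 and 5.80 CPM in the MHC-I-low libraries. MHC-I-low libraries 2 and 3 lay within the range of the MHC-I-high group, and libraries 1 and 6 well under it.

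**Figure D3:**
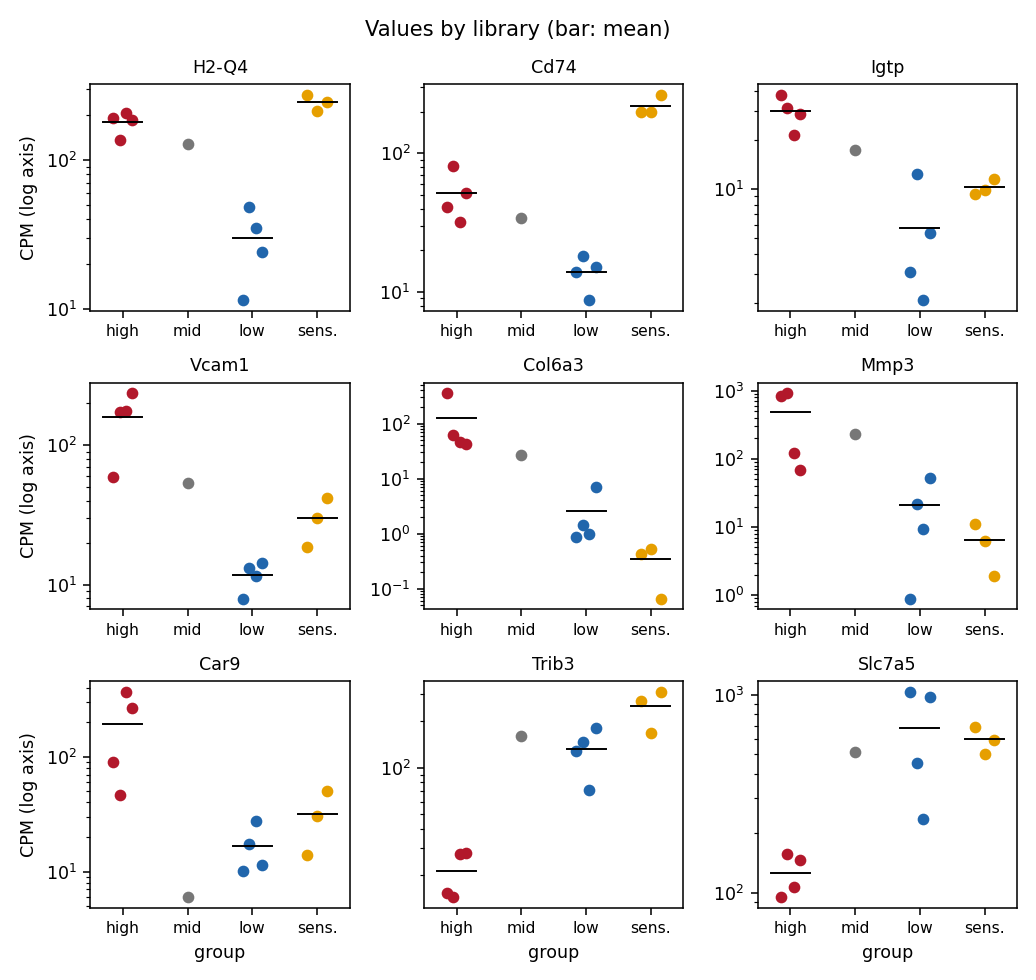
CPM (log axis) of 9 genes, 1 point per library, in the MHC-I-high (n = 4), middle (n = 1), MHC-I-low (n = 4) and sensitive (n = 3) libraries, with the group mean as a bar. H2-Q4, Cd74, Igtp, Vcam1, Col6a3, Mmp3 and Car9 stand higher in MHC-I-high than in MHC-I-low libraries, and Trib3 and Slc7a5 lower.

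The series title names collagens made by cancer cells as a barrier, and some matrix genes separated the class I groups. Of 26 collagens, 3 (Col1a1, Col6a3 and Col8a1) were called higher (11.5%, against 2.83% of all genes) and 0 lower. Of the 26, 24 had a difference above 0. Col6a3, a chain of the microfibrillar collagen VI, had 356, 62.2, 45.7 and 42.8 CPM in the MHC-I-high libraries, against 0.880, 1.42, 0.968 and 7.14 CPM in the MHC-I-low libraries. Col1a1, the main chain of fibrillar collagen I, had 437, 107, 54.7 and 33.8 CPM in the MHC-I-high libraries, against 9.22, 4.17, 4.13 and 8.24 CPM in the MHC-I-low libraries. In both genes library 5 stood far above the other MHC-I-high libraries, which were themselves above every MHC-I-low library. Col3a1, the partner of collagen I in soft tissue, overlapped at 136, 147, 165 and 158 CPM in the MHC-I-high libraries against 15.7, 155, 149 and 205 CPM in the MHC-I-low libraries, where library 1 alone was low. Col6a1 and Col4a1 also overlapped, with differences of 1.02 and 0.75. Of 27 genes that process and crosslink collagen, 5 were called higher (18.5%, against 2.83% of all genes): P4ha1, P4ha2, Lox, Loxl2 and Tgm2. Lox, the lysyl oxidase that crosslinks collagen, had 236, 23.01, 91.8 and 59.5 CPM in the MHC-I-high libraries, against 1.39, 3.003, 4.84 and 11.2 CPM in the MHC-I-low libraries. P4ha1 and P4ha2 are hydroxylases of collagen prolines, and P4ha1 is counted among the hypoxia genes as well.

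Matrix glycoproteins and proteases added to this. Of 32 matrix glycoproteins, 5 were called higher (15.6%, against 2.83% of all genes). They were led by Ltbp2, a protein of elastic fibres, at 157 ± 46.6 CPM in MHC-I-high and 19.4 ± 9.37 CPM in MHC-I-low libraries (SD, n = 4 each). Mmp3 (stromelysin 1) had 851, 926, 122 and 68.6 CPM in the MHC-I-high libraries, against 0.880, 22.02, 9.48 and 53.01 CPM in the MHC-I-low libraries. Mmp13 (a collagenase) had 42.8, 153, 34.5 and 44.6 CPM in the MHC-I-high libraries, against 0.509, 1.25, 1.61 and 12.1 CPM in the MHC-I-low libraries. Both proteases were highest in library 7 and spanned a wide range within each group. Of 25 genes of mesenchymal transition, 4 were called higher (16.0%, against 2.83% of all genes), among them Mmp3, Mmp9 and Itgb3. The transcription factor Twist1 overlapped at 118 ± 22.1 CPM in MHC-I-high and 131 ± 16.3 CPM in MHC-I-low libraries (SD, n = 4 each). Without libraries 8 and 9, where 4.36% of all genes were called higher, the counts were 7 of 26 collagens, 9 of 27 collagen processing genes, 10 of 31 matrix glycoproteins and 6 of 24 genes of mesenchymal transition.

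Markers of fibroblasts were higher in part. Of 21 fibroblast markers other than collagens, 8 passed the filter and 3 of these were called higher (37.5%, against 2.83% of all genes). They were Pdgfra, Thy1 and Scara5, the last not without library 5. Pdgfra, a receptor of platelet-derived growth factor, had 279.8, 150.1, 149 and 116 CPM in the MHC-I-high libraries, against 6.71, 22.8, 21.5 and 30.2 CPM in the MHC-I-low libraries. Dpt and Tcf21, markers of fibroblasts in tissue, were at or near 0, with at most 0.783 CPM of Dpt in any of the 8 libraries. The summed level of the 21 markers ran from 389.6 to 453 CPM in MHC-I-high and from 197 to 395 CPM in MHC-I-low libraries, and its part in the matrix values was not tested.

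Epithelial identity did not separate the groups. Of 32 epithelial adhesion and keratin genes 0 were called, although the median difference was 1.34. Of all genes, 2.83% were called higher and 0.807% lower. The mean over the list was 1.82, 2.82, 5.29 and 5.91 (log2(CPM + 1)) in the MHC-I-high libraries, against 3.38, 2.52, 2.45 and 2.12 in the MHC-I-low libraries. Library 5 was thus the lowest and libraries 8 and 9 the highest of all 8. Cdh1 (E-cadherin) had 0.619, 6.91, 122 and 176 CPM in the MHC-I-high libraries, against 37.6, 5.17, 3.35 and 2.21 CPM in the MHC-I-low libraries. Krt8, a keratin of simple epithelium, overlapped at 272 ± 128 CPM in MHC-I-high and 196 ± 57.5 CPM in MHC-I-low libraries (SD, n = 4 each). Without libraries 8 and 9, 0 of 25 epithelial genes were called higher and 3 lower, against 4.36% and 1.69% of all genes. Nkx2-1, a transcription factor of lung epithelium, did separate the groups. It had 26.7, 18.8, 37.2 and 63.7 CPM in the MHC-I-high libraries, against 3.24, 1.08, 2.26 and 6.68 CPM in the MHC-I-low libraries. Libraries 5 and 7 were within that higher range without carrying much Cdh1. The mean over the alveolar type 2 list did not separate the groups. It was 3.63, 3.96, 5.22 and 5.78 (log2(CPM + 1)) in the MHC-I-high libraries, against 3.74, 3.59, 3.49 and 3.66 in the MHC-I-low libraries. Of its 21 markers, Nkx2-1 and Dram1 (not without library 9) were called higher (9.52%, against 2.83% of all genes). Of 14 gut and liver endoderm genes, Gata6 and Afp were (14.3%, against 2.83% of all genes). Flt1, a receptor of VEGF, alone was called higher of 6 endothelial markers (16.7%, against 2.83% of all genes). It was at 53.7 ± 5.38 CPM in MHC-I-high and 12.03 ± 1.17 CPM in MHC-I-low libraries (SD, n = 4 each). Kdr, the main VEGF receptor of vessels, was at most 1.72 CPM and Myh11, a smooth muscle myosin, at most 0.344 CPM in the 8 libraries.

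Genes of the hypoxic response were higher in the MHC-I-high libraries. Of 29 hypoxia and glycolysis genes, 9 were called higher (31.0%, against 2.83% of all genes) and 0 lower. The 9 were Car9, Slc2a3, Pgk1, Bnip3, Egln3, Ankrd37, Adm, Slc16a3 and P4ha1. Car9, the carbonic anhydrase induced by HIF-1, had 89.5, 46.1, 369 and 266 CPM in the MHC-I-high libraries, against 10.1, 17.3, 27.4 and 11.5 CPM in the MHC-I-low libraries, and only 5.98 CPM in the middle library. Slc16a3, a lactate exporter, had 636, 781, 509 and 538 CPM in the MHC-I-high libraries, against 178, 59.5, 96.1 and 165 CPM in the MHC-I-low libraries. Egln3, a HIF prolyl hydroxylase that HIF itself induces, was 378 ± 121 CPM in MHC-I-high and 88.7 ± 24.7 CPM in MHC-I-low libraries (SD, n = 4 each). Vegfa overlapped at 438 ± 154 CPM in MHC-I-high and 238 ± 61.4 CPM in MHC-I-low libraries (SD, n = 4 each). Leaving out libraries 8 and 9, 8 of 29 genes were called higher, against 4.36% of all genes, and all 8 were among the 9. The call of Adm ended under the TMM and DESeq2 scalings. Oxygen in the cultures was not measured here.

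Small proline-rich genes, which encode parts of the cornified envelope, the crosslinked shell of squamous cells, held the 2 largest differences of the named genes, those of Sprr2e and Sprr1a. The list of 23 such genes was drawn up after these values were seen. Of these, 8 passed the filter and 6 of the 8 were called higher (75%, against 2.83% of all genes). Sprr2e had 51.8, 142, 159 and 66.9 CPM in the MHC-I-high libraries, against 0.0926, 0.334, 0.516 and 1.47 CPM in the MHC-I-low libraries. Sprr1a had 63.9, 86.7, 263 and 108 CPM in the MHC-I-high libraries, against 2.08, 2.42, 4.32 and 2.12 CPM in the MHC-I-low libraries. Sprr2k had 36.3, 23.7, 23.4 and 13.1 CPM in the MHC-I-high libraries, against 0.509, 0.2502, 0.516 and 0.322 CPM in the MHC-I-low libraries. Libraries 5 and 7, poor in Epcam, carried these RNAs as well as libraries 8 and 9, and the middle library had 1.46, 3.77 and 1.46 CPM of the 3 genes. With the middle library added to the MHC-I-high group, 2 of 8 genes of the list were called higher, against 1.59% of all genes. The Sprr2 genes are close copies, so reads may be split among them.

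On the lower side, genes of the unfolded protein and ATF4 responses stood out. ATF4, the transcription factor of the integrated stress response, drives the making, import and charging of amino acids. Of 20 genes of the unfolded protein and ATF4 responses, 6 were called lower in MHC-I-high libraries (30%, against 0.807% of all genes) and 0 higher: Atf4, Trib3, Asns, Chac1, Sesn2 and Herpud1. Trib3, a pseudokinase induced by ATF4, had 15.3, 14.3, 27.4 and 27.9 CPM in the MHC-I-high libraries, against 127, 148, 71.5 and 179.8 CPM in the MHC-I-low libraries. Atf4 itself had 227, 254, 235 and 215 CPM in the MHC-I-high libraries, against 661, 647, 467 and 915 CPM in the MHC-I-low libraries. Chac1, which degrades glutathione, had 6.72, 16.7, 20.5 and 9.63 CPM in the MHC-I-high libraries, against 35.6, 90.2, 50.3 and 76.7 CPM in the MHC-I-low libraries. As the rule for a call requires, no MHC-I-high library reached the lowest MHC-I-low library in any of the 3 genes. Over the list of 20, 18 had a difference below 0 and the median difference was -0.59. Members that overlapped included 2 chaperones of the endoplasmic reticulum, named after their values were seen: Hspa5 (BiP) was 1354 ± 532 CPM in MHC-I-high and 1368 ± 507 CPM in MHC-I-low libraries, and Hsp90b1 906 ± 148 CPM in MHC-I-high and 835 ± 207 CPM in MHC-I-low libraries (SD, n = 4 each). Ddit3 (CHOP) differed by -1.57 but overlapped, since MHC-I-low library 1 had 27.5 CPM and MHC-I-high library 9 had 31.8 CPM.

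Several other genes with the largest lower differences also act in amino acid supply or stress. Cth, which makes cysteine from cystathionine, had 8.35, 40.1, 20.5 and 21.6 CPM in the MHC-I-high libraries, against 235, 140.1, 68.1 and 359.7 CPM in the MHC-I-low libraries. Slc7a5 (LAT1), an importer of large neutral amino acids, had 95.01, 158, 107 and 147 CPM in the MHC-I-high libraries, against 1039, 451, 237 and 979 CPM in the MHC-I-low libraries. Atf5, a factor related to ATF4, had 16.6, 20.7, 16.7 and 24.1 CPM in the MHC-I-high libraries, against 71.2, 98.4, 77.3 and 148 CPM in the MHC-I-low libraries. Within the MHC-I-low group library 3 was the lowest for Slc7a5 and Cth, yet above every MHC-I-high library. Ppp1r15a (GADD34), which reverses the block on translation, was 45.5 ± 13.3 CPM in MHC-I-high and 239 ± 105 CPM in MHC-I-low libraries (SD, n = 4 each). Acot2, a mitochondrial thioesterase, and Soat2, which esterifies cholesterol, were also among the 8 largest lower differences, at -3.09 and -2.21.

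The promoters of the lower genes are shown for the same reason as before, since ATF4 with C/EBP partners is known to read a composite element, here searched as TGATGNAA on both strands (capitals).
Asns (chr6:7693211-7693246, minus strand): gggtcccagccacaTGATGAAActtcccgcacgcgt
Chac1 (chr2:119351035-119351070, plus strand): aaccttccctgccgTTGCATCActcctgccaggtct
Herpud1 (chr8:94386303-94386338, plus strand): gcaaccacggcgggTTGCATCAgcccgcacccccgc
The letters stood in 19.4% of the promoters of genes called lower in MHC-I-high libraries (14 of 72), in 3.44% of those called higher (9 of 262) and in 2.73% of all promoters of measured genes (268 of 9824). Among the 14 were Trib3, Asns, Chac1, Herpud1, Fgf21, Pycr1, Pck2 and the tRNA synthetases Aars and Gars.

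The middle library separated these gene groups from one another. It lay nearer the MHC-I-high mean for 10 of the 11 called interferon-stimulated genes, 4 of the 5 class I heavy chains and 4 of the 5 class II genes. For the 6 called genes of the ATF4 list it lay nearer the MHC-I-low mean in 6, and for the 9 called hypoxia genes in 8. Trib3 had 160.1 CPM in the middle library and Slc7a5 516 CPM, both inside the range of the MHC-I-low libraries, while Tap2 had 47.2 CPM there, inside the range of the MHC-I-high libraries. Over all called genes it lay nearer the MHC-I-high mean in 169 of the 365 higher genes (46.3%) and nearer the MHC-I-low mean in 80 of the 104 lower genes (76.9%). With it added to the MHC-I-high group, 11 of 55 interferon-stimulated genes and 4 of 11 class II genes were still called, but 1 of 29 hypoxia genes and 0 of 20 genes of the ATF4 list. In that setting 1.59% of all genes were called higher and 0.249% lower, so fewer calls of any kind were made. For the hypoxia and ATF4 lists, then, the middle library stood with the MHC-I-low libraries, although its class I score was close to the upper group.

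**Figure D4:**
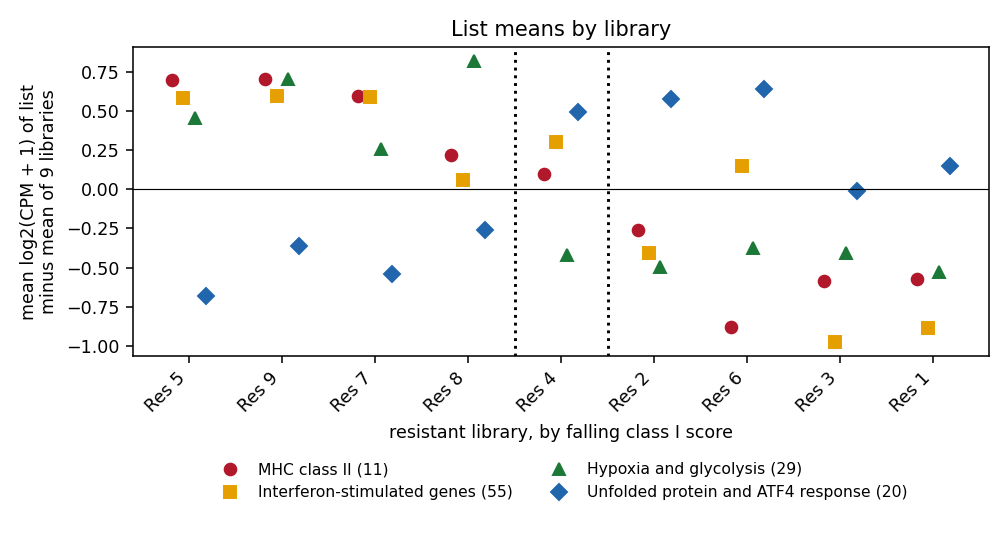
Mean log2(CPM + 1) over the members of 4 lists past the filter (numbers in brackets), minus the mean of the 9 resistant libraries, with libraries by falling class I score and dotted lines on both sides of the middle library, resistant 4. That library stands above 0 for class II, interferon and ATF4 genes and under 0 for hypoxia genes, and MHC-I-low library 6 stands above MHC-I-high library 8 for interferon genes.

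The labels allow a test between resistant and sensitive libraries, which the class I score did not use to form groups. Over 14360 genes, edgeR's quasi-likelihood test with Benjamini-Hochberg adjustment called 19.3% higher and 18.2% lower in resistant libraries at an adjusted p under 0.05. Since the labels do not tie libraries to animals or cultures, these p-values reflect only how much the libraries vary, which may be technical. Among the genes that separated the class I groups, Pdgfra was higher in resistant libraries, at 279.8, 150.1, 149 and 116 CPM in MHC-I-high and 6.71, 22.8, 21.5 and 30.2 CPM in MHC-I-low libraries against 1.12, 4.27 and 1.77 CPM in sensitive libraries (log2 fold change 5.17 ± 1.23 SE, edgeR adjusted p = 0.00585). Col6a3 had 0.427, 0.527 and 0.0654 CPM in sensitive libraries (log2 fold change 7.34 ± 2.29 SE, edgeR adjusted p = 0.023), and Col1a1 0.962, 3.74 and 0.915 CPM (log2 fold change 5.27 ± 1.74 SE, edgeR adjusted p = 0.0298). The calls of Col6a3, Col1a1 and Mmp3 ended when any 1 sensitive library was left out. That of Mmp3, with 11.2, 6.14 and 1.90 CPM in sensitive libraries (log2 fold change 5.22 ± 1.89 SE, edgeR adjusted p = 0.0441), also ended without resistant library 4, 5, 7 or 8.

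Antigen presentation genes gave another order. Cd74 was lower in resistant libraries, with at most 81.2 CPM in any MHC-I-high library against 198, 201 and 265 CPM in sensitive libraries (log2 fold change -2.82 ± 0.48 SE, edgeR adjusted p = 0.000709), so even the upper resistant libraries stood under the sensitive ones. H2-Q4 had 273, 213 and 245 CPM in sensitive libraries, and the test did not pass (log2 fold change -1.24 ± 0.66 SE, edgeR adjusted p = 0.153). Nlrc5 had 36.01, 37.9 and 30.5 CPM in sensitive libraries, within the range of the MHC-I-high group (log2 fold change -0.07 ± 0.56 SE, edgeR adjusted p = 0.927). Vcam1 had 18.8, 30.2 and 42.1 CPM in sensitive libraries, between the class I groups (log2 fold change 1.38 ± 1.03 SE, edgeR adjusted p = 0.305). Igtp had 9.35, 9.89 and 11.4 CPM in sensitive libraries, under every MHC-I-high library.

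For the ATF4 genes, sensitive libraries resembled the MHC-I-low ones or stood above them. Atf5 fell in resistant libraries, against 338, 277 and 436 CPM in sensitive libraries (log2 fold change -2.47 ± 0.59 SE, edgeR adjusted p = 0.00559). Herpud1 and Chac1 also fell (log2 fold change -2.50 ± 0.40 SE and -2.001 ± 0.61 SE, edgeR adjusted p = 0.00046 and 0.0214), and Cth did so, against 614, 417 and 657 CPM in sensitive libraries (log2 fold change -2.37 ± 0.79 SE, edgeR adjusted p = 0.0315). The call of Cth ended without any 1 sensitive library, and that of Chac1 without sensitive library 1 or 3. Trib3, with 271, 168 and 312 CPM in sensitive libraries, did not pass (log2 fold change -1.61 ± 0.67 SE, edgeR adjusted p = 0.0755), but did with DESeq2 and its size factors (log2 fold change -1.63, adjusted p = 0.0423). Slc7a5, with 690, 504 and 593 CPM in sensitive libraries, inside the range of the MHC-I-low group, did not pass (log2 fold change -0.59, edgeR adjusted p = 0.508). Of the 104 genes called lower in MHC-I-high libraries, the sensitive mean lay nearer the MHC-I-low mean in 72 (69.2%), and of the 365 called higher it lay nearer the MHC-I-high mean in 210 (57.5%).

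**Figure D5:**
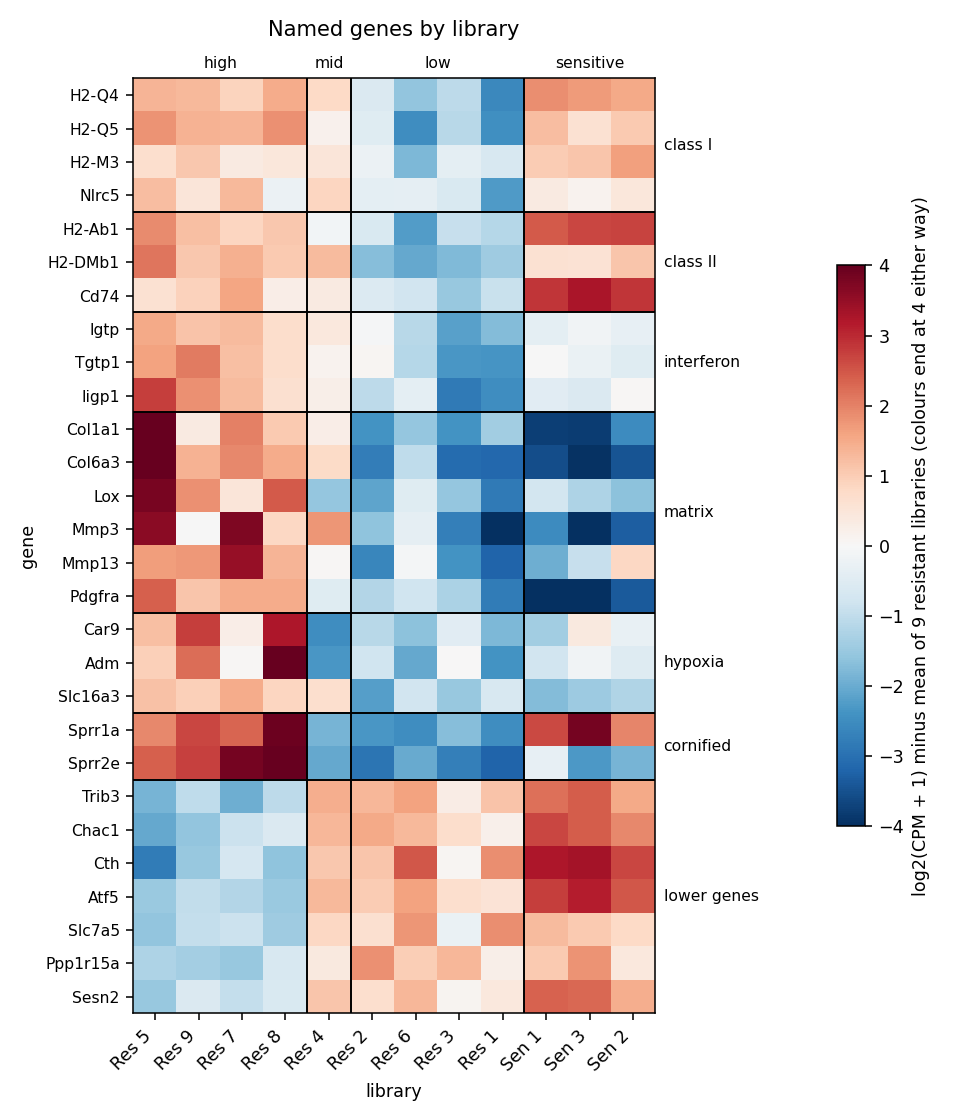
Log2(CPM + 1) of 28 named genes in each library minus the gene's mean over the 9 resistant libraries, in red where above and in blue where under that mean, with colours ending at 4 either way. Columns run from the MHC-I-high libraries over the middle library and the MHC-I-low libraries to the sensitive libraries. Resistant library 4 resembles the MHC-I-high libraries for H2-Q4 and Igtp and the MHC-I-low libraries for Sprr1a, Trib3 and Atf5.

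Genes of cell division were not called, where 2.83% of all genes were called higher and 0.807% lower. Of 38 proliferation genes 0 were called, although 33 had a difference above 0 and the median difference was 0.50, and Mki67, a marker of dividing cells, overlapped at 236 ± 15.8 CPM in MHC-I-high and 179.5 ± 134 CPM in MHC-I-low libraries (SD, n = 4 each), with MHC-I-low library 1 at 372 CPM the highest and library 3 at 62.1 CPM the lowest of all 8. Of 22 p53 targets, Bbc3 (PUMA) and Sesn2 were called lower (9.09%, against 0.807% of all genes) and 0 higher, Bbc3 not without library 2 or 5. Sesn2 is counted in the ATF4 list as well. Of 24 genes of RAS and ERK output, Ier3 was called higher (4.17%, against 2.83% of all genes). Of 23 TGF-beta pathway genes Inhba and Ctgf were (8.70%, against 2.83% of all genes), Inhba no longer so under the TMM and DESeq2 scalings. Lymphocyte genes were sparse in both groups, with a summed level of 6.01 to 19.8 CPM in MHC-I-high and 9.76 to 60.3 CPM in MHC-I-low libraries, library 2 being the highest.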

How the data were processed

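RNA of 12 organoid libraries of one deposited table was used, 9 labelled resistant and 3 labelled sensitive to immunotherapy. Per the labels' protocols, a strand-keeping mRNA kit and paired reads of a NovaSeq instrument were used. STAR 2.6.0a, DESeq2 1.26.0 and build mm10 are named in the submitters' processing notes, and neither the read counter nor the annotation is given in the sources used here. Per the file headers, the authors deposited raw whole-number counts for each gene and library. Their log2 values, fold changes and p-values, and a table of normal lung and other tumour organoids, were not used here.

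From the counts, CPM was taken over the column total (24421 rows; 26 of 27 symbols stored as dates were restored through Entrez numbers). The class I score, groups and call rule are as given with the results, and no p-value was computed between groups formed from measured values. Resistant libraries were tested against sensitive ones with edgeR 4.0.16 (R 4.3.3): filterByExpr, TMM, glmQLFit and glmQLFTest, Benjamini-Hochberg adjustment over all genes, threshold 0.05. On simulated data both procedures were checked. Python 3.11.15 was used for descriptions. The alternatives tried were other scalings, filters, pseudocounts, cutoffs, scores and group sizes, leaving out libraries, DESeq2 1.42.0, and a replicate block. Promoter windows are RefSeq, GRCm38.p6.

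The genes of the score, the 34 gene lists and the named genes were chosen with earlier results of these data known, and 5 lists (cornified envelope, retinoid handling, metalloproteases, tRNA synthetases and amino acid transporters) were drawn up after their values were seen. Named genes are the 8 called genes with the largest difference in each direction (mean of at least 8 CPM, with a gene symbol that is not a model or clone), up to 3 called members of each list with the largest difference, and a fixed set. Other list members were named after their values were seen. No 2 libraries of a group differed by as little as counting noise. The closest pairs of resistant libraries were 8 and 9 (MHC-I-high) and 2 and 3 (MHC-I-low), with Spearman correlations over genes of 0.979 and 0.974. The labels do not say whether these share an animal or culture, so the 4 libraries of a group may stand for fewer sources. Some members of the lists are counted but not reported here by name.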

Additional observations from a re-analysis of the deposited data

Results flagged for a closer look

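Each group of 4 libraries was examined for a single value far from the others in 58 genes (116 groups of values), and 7 were set apart; chance alone sets apart about 1 in 20. Mmp13 had 153 CPM in MHC-I-high library 7, against 34.5 to 44.6 CPM in the other 3 of that group. Psmb10 had 13.4 CPM in MHC-I-high library 8, against 27.5 to 29.6 CPM in the other 3. In MHC-I-low library 1, Nlrc5 had 5.001 CPM against 17.8 to 21.2 CPM in the other 3, Cxcl10 0.370 CPM against 1.42 to 1.70 CPM, and Col3a1 15.7 CPM against 149 to 204.5 CPM. Psmb8 had 5.81 CPM in MHC-I-low library 3, against 9.49 to 9.68 CPM in the other 3. Xist had 19.9 CPM in MHC-I-low library 6, against 0.0463 to 0.2502 CPM in the other 3.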

How the results depend on the processing

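Under every alternative tried, 0 of the 469 called genes changed direction. Leaving out libraries, or another filter, cutoff or pseudocount, could not turn a called gene, since its groups do not overlap. Only other scalings, other scores or the added middle library could have done so. The counts of 365 higher and 104 lower genes stayed within 1.5 times under other scalings (TMM, DESeq2 size factors), a pseudocount of 0.5, other filters, 3 libraries against 3, and scores built from z-scores or without H2-K1 and H2-D1, which gave the same groups. A cutoff of 1.5-fold gave 557 higher and 359 lower. Fewer libraries make groups overlap less by construction: leaving out 1 library gave 383 to 531 higher and 96 to 187 lower (165 without library 7, 187 without 1, 164 without 3), leaving out libraries 8 and 9 gave 554 and 215, libraries with Y-linked reads alone gave 710 and 329, and libraries with Xist reads alone (2 against 1, chosen after seeing the data) gave 1695 and 864. With the middle library added to the MHC-I-high group, also chosen after seeing the data, 205 higher and 32 lower remained, and 45 of the 68 named calls were kept. TMM and DESeq2 scalings kept 66 of the 68, and leaving out 1 library kept 64 to 68. The replicate numbers did not pair resistant with sensitive libraries (correlations of 0.146, 0.145 and -0.0877). A replicate block gave 1983 genes higher and 2287 lower in resistant libraries, in place of 2768 and 2612, and rests on resistant libraries 1, 2 and 3 against the sensitive ones, all MHC-I-low; it turned Vcam1 to -1.48, as a call (edgeR adjusted p = 0.0077), made H2-Q4 (-3.19, adjusted p = 0.0077) and Nkx2-1 (-5.22, adjusted p = 0.00137) calls, took Nlrc5 to -1.51 (adjusted p = 0.0557, no call), and did not call Col6a3, Col1a1 or Mmp3. Leaving out 1 library gave 1765 to 2867 higher, 1800 without sensitive library 1 and 1765 without sensitive library 3, and 1859 to 2694 lower. Without a block, the log2 fold change of Nlrc5 ran from -0.26 to 0.0726 when 1 library was left out, and was above 0 without sensitive library 2 (6.8211e-05) and without resistant library 1 or 3 (0.0726 and 0.00765). The cause of these turns was not tested. With 4 libraries a group and 1 middle library, differences smaller than the spread within a group could not be described.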

Other observations

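Further groups of genes, put together after their values were seen, describe the same libraries. Over all genes, 2.83% were called higher and 0.807% lower in MHC-I-high libraries. Of 20 cytosolic aminoacyl-tRNA synthetases, which charge tRNAs with amino acids, 5 were called lower (Aars, Gars, Lars, Nars and Sars; 25%) and 0 higher. Nars, for asparagine, had 335, 341, 326 and 333 CPM in the MHC-I-high libraries, 704 CPM in the middle library, and 825, 686, 470.1 and 779 CPM in the MHC-I-low libraries. Of 24 amino acid transporters, 6 were called lower (25%), namely Slc1a5, Slc3a2, Slc6a9, Slc7a5, Slc38a1 and Slc38a7. Slc7a2, a carrier of arginine, was called higher (4.17%). Slc3a2, the heavy chain that partners Slc7a5, had 156, 230.1, 319.6 and 315 CPM in the MHC-I-high libraries, against 669, 661, 393 and 839 CPM in the MHC-I-low libraries. With the middle library added to the MHC-I-high group, 0 genes of either list were called, in a setting where 0.249% of all genes were called lower.

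Of 17 genes of retinoid handling, 4 were called higher in MHC-I-high libraries (23.5%, against 2.83% of all genes). Only Dhrs9 was called lower (5.88%, against 0.807%). Stra6, a membrane receptor for retinol uptake, had 23.995, 33.6, 40.6 and 96.97 CPM in the MHC-I-high libraries, against 4.21, 1.75, 1.29 and 12.6 CPM in the MHC-I-low libraries. Crabp1, which binds retinoic acid, had 68.2, 166, 59.5 and 45.4 CPM in the MHC-I-high libraries, against 6.62, 5.67, 6.19 and 10.5 CPM in the MHC-I-low libraries, and 0 counts in the 3 sensitive libraries. Of 18 metalloproteases and inhibitors, 5 were called higher (27.8%), namely Mmp3, Mmp9, Mmp10, Mmp13 and Timp3, and Mmp28 lower (5.56%). Timp3, an inhibitor of metalloproteases, had 53.4, 9.93, 15.5 and 14.6 CPM in the MHC-I-high libraries, against 1.81, 1.001, 0.387 and 1.98 CPM in the MHC-I-low libraries.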
